A study of Mus musculus with 9 samples.

Results

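The 33 genes described here encode the enzymes, regulators and a transport protein of sterol and fatty acid synthesis. They were chosen by name as members of these pathways, with earlier results of these data known. Counts of calls among them are therefore descriptions. Out of 52476 gene rows, they are 6 genes of regulation and transport, 17 of the cholesterol arm and 10 of the fatty acid arm. Their mRNA was measured in 9 libraries of dendritic cells that had been differentiated from bone marrow monocytes of C57BL/6 mice by 7 days of culture in GM-CSF and IL-4; the cells were purified by flow sorting. The 3 groups of 3 libraries were control cells with no stimulation, cells given R837, and cells given R837 together with spermidine. R837 (imiquimod) is an agonist of the endosomal receptor TLR7, and spermidine is a natural polyamine. For the stimulated cells the protocol gives 24 h of priming with interferon α before 18 h of culture with R837. Whether the control cells were primed is not given in the labels, so effects of R837 and of priming cannot be told apart. The labels do not say whether replicates came from separate mice or cultures, so a p-value here speaks only to how much these libraries vary, and that variation may be technical.

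Animal cells build cholesterol and fatty acids from acetyl-CoA. In the sterol arm, acetyl-CoA is turned through mevalonate and isoprenoid units into squalene, which is closed to lanosterol and trimmed to cholesterol; in the fatty acid arm, acetyl-CoA carboxylase and fatty acid synthase make palmitate, which elongases and desaturases then lengthen and unsaturate. Genes of both arms are classic targets of the SREBP transcription factors, which the escort protein SCAP carries out of the endoplasmic reticulum when sterols are low and which the INSIG proteins hold back when sterols are high. In macrophages and dendritic cells these lipids shape membranes and give rise to oxysterols and to lipid mediators derived from polyunsaturated fatty acids.

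Levels are FPKM, fragment counts corrected for transcript length and library size, as the authors deposited them. A gene was tested if it reached 1 FPKM in at least 3 of the 9 libraries, which 11768 genes did. Changes are differences of log2(FPKM + 1), which understate the change of low genes, and a call is an adjusted p under 0.05 by limma with Benjamini-Hochberg adjustment over all tested genes. Of the 33 genes 30 were tested; Tm7sf2, Elovl6 and Fads2 did not reach the filter, and Acss2 reached it through the spermidine libraries alone, so that a higher value there was a condition of its being tested. FPKM totals were 310220 to 326222 per library, and the steps between low values correspond to a depth of 21400000 to 29100000 reads or fragments per library. Of 9 markers of dendritic and monocyte-derived cells, 8 were detected, with summed levels of 3237 to 3272 FPKM in control, 3323 to 3856 with R837 and 3167 to 3291 with spermidine; Cd209a was listed at 0 in every library. The markers did not move as one: with R837 Ciita went from 6.04 ± 0.509 to 39.0 ± 4.64 FPKM, while Mgl2 went from 69.5 ± 1.47 to 50.7 ± 2.47, Fcgr1 from 35.6, 32.2 and 31.2 to 21.4, 21.1 and 23.4 and Itgam from 150 ± 21.1 to 92.2 ± 48.8, with Itgam at 37.1 in R837 replicate 2. R837 replicate 2 stood apart, with correlations of 0.967 to 0.969 with its group, where the other pairs within groups reached 0.981 to 0.986. The summed level of 4 erythroid markers was 0 to 1305 FPKM in the R837 libraries, with Hbb-bs at 0, 98.0 and 815 FPKM, against at most 5.27 in all other libraries. The summed level of 6 neutrophil markers was 28.5 to 31.1 FPKM in control, 37.2 to 191 with R837 and 20.3 to 22.1 with spermidine. That of 3 mast cell and basophil markers was 5.29 to 7.92 FPKM in control, 1.46 to 3.16 with R837 and 2.42 to 2.97 with spermidine, so both stimulated groups lay below control. The part of these cells in the results was not tested. The adipocyte marker Adipoq was listed at 0 in all libraries.

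R837 libraries were compared with control libraries to ask how stimulation moved these pathways. The fatty acid desaturases Scd1, Scd2 and Fads1, the elongase Elovl5, fatty acid synthase and several late enzymes of cholesterol synthesis fell, while the regulator Srebf2 and the isoprenoid isomerase Idi1 rose. Of the 30 tested genes, 12 were called lower and 2 higher, and 16 were not called. Over all tested genes 43.2% were called in either direction, 29.5% lower and 13.6% higher. The 12 lower calls are 40% of the tested pathway genes. The median log2 change of the 30 genes was -0.24, and that of all tested genes was -0.17. The libraries of both groups did not overlap for 20 of the 30 genes, 18 of them lower and 2 higher with R837; over all tested genes this held for 54.0%, with 38.2% lower and 15.8% higher. Leaving out 1 library of these groups gave 12 calls without R837 replicate 1, 13 without control replicate 2 or 3, 14 without control replicate 1 or R837 replicate 3, and 17 without R837 replicate 2, where Hmgcs1, Mvk and Fdps also passed as lower; over all tested genes the calls were 4328, 5580 and 4676 without R837 replicate 1, 2 and 3, in place of 5081. In bulk RNA, fewer cells that express a gene and less RNA per cell cannot be told apart.

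**Figure D1:**
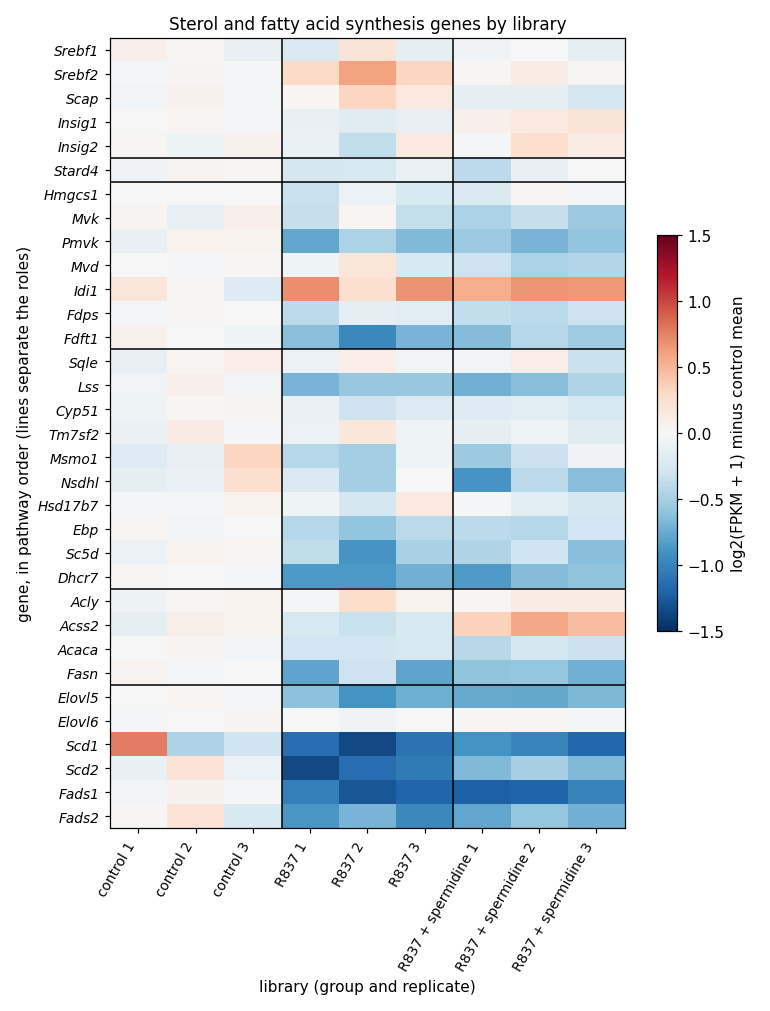
Level of each of the 33 genes in each of the 9 libraries, as log2(FPKM + 1) minus the mean of the 3 control libraries (colour), with genes in pathway order and lines between roles and groups. The lower rows, Elovl5 to Fads2 except Elovl6, are blue in all 6 stimulated libraries, Idi1 is red in all 6, and Srebf2 is red mainly with R837 alone.

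In desaturation and elongation all 4 tested genes were called lower, against 29.5% of all tested genes. Scd1, Scd2 and Fads1 had the largest falls of the 30 genes in this fit. Fads1, the desaturase that completes arachidonic acid, was at 11.5, 12.4 and 11.5 FPKM in the control libraries and at 5.30, 4.27 and 4.60 with R837. Every R837 value lay below every control value. The mean fell from 11.8 ± 0.537 to 4.72 ± 0.524 FPKM (SD, n = 3), which is 40.1% of control, and this was a call by limma (log2 change -1.16, SE 0.097, adjusted p = 1.7e-05). Fads2, the neighbouring gene and first desaturase of the same route, was at 1.14, 1.43 and 0.803 FPKM in control and 0.151, 0.301 and 0.0791 with R837. All R837 values were under all control values, but the levels were below the filter; tested with no filter, the log2 change was -0.84 (limma adjusted p = 0.0022). Fads1 and Fads2 lie next to each other on chromosome 19, on opposite strands (chr19:10182888-10196877 and chr19:10062765-10101746, GRCm38).

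Scd1 and Scd2 encode stearoyl-CoA desaturases, which make monounsaturated fatty acids. Scd2 was at 3.25, 4.27 and 3.31 FPKM in control and 0.788, 1.08 and 1.20 with R837. The groups were well apart, and Scd2 was called lower (log2 change -1.19, SE 0.12, adjusted p = 5.7e-05 by limma), at 28.3% of the control mean. Scd1 was at 10.4, 3.84 and 4.42 FPKM in control and 2.02, 1.61 and 2.11 with R837. The first control library was far above the other two controls, but all 3 controls exceeded all R837 libraries, and Scd1 was called lower (log2 change -1.20, SE 0.28, adjusted p = 0.0073 by limma). Both genes share a stretch of 623 bases at 95.5% identity, so reads could have been divided between them. Elovl5, which lengthens polyunsaturated fatty acids, was at 20.4, 20.9 and 20.2 FPKM in control and 13.0, 10.5 and 11.9 with R837. No R837 library reached the control range, and Elovl5 was called lower (log2 change -0.75, SE 0.084, adjusted p = 0.00011 by limma), at 57.7% of control. Elovl6, the elongase of palmitate, was at most 0.0611 FPKM in every library and gives no comparison. The summed level of the 6 desaturase and elongase genes was 43.2 ± 3.19 FPKM in control and 19.7 ± 1.78 with R837.

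Of the 4 genes that supply acetyl-CoA and build fatty acids, 2 were called lower, against 29.5% of all tested genes. Fasn, fatty acid synthase, was at 8.11, 7.72 and 7.81 FPKM in control and 4.13, 6.14 and 4.12 with R837. The libraries did not overlap, and R837 replicate 2 was the closest to control; Fasn was called lower (log2 change -0.63, SE 0.13, adjusted p = 0.0037 by limma). Acaca, acetyl-CoA carboxylase, was at 2.73, 2.84 and 2.61 FPKM in control and 2.06, 2.06 and 2.15 with R837. Its groups did not overlap and it was called lower (log2 change -0.27, SE 0.08, adjusted p = 0.023 by limma), but the call was lost without control replicate 1 (adjusted p = 0.061), control replicate 2 (0.078) or R837 replicate 1 (0.059), and under other scalings. The processed pseudogene Gm5182 matches Acaca at 99.2% identity over 6118 bases, so reads could have been divided between them. Gm5182 was listed at 0.0317 FPKM at most. Acly, which splits citrate to acetyl-CoA and was the most abundant of the 33 genes, was at 31.2, 33.7 and 34.1 FPKM in control and 32.6, 39.7 and 34.3 with R837. These ranges overlapped, and Acly was not called (log2 change 0.10, SE 0.086, adjusted p = 0.37 by limma). Acss2, which makes acetyl-CoA from acetate, was at 0.452, 0.708 and 0.670 FPKM in control and 0.362, 0.277 and 0.369 with R837. Control libraries were all above R837 libraries, and the change missed the threshold (log2 change -0.27, SE 0.11, adjusted p = 0.073 by limma).

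In cholesterol synthesis from squalene on, 4 of 9 tested genes were called lower, against 29.5% of all tested genes. Dhcr7, the reductase that completes cholesterol, was at 2.78, 2.74 and 2.70 FPKM in control and 1.06, 1.06 and 1.27 with R837. The groups were well separated, and Dhcr7 was called lower (log2 change -0.81, SE 0.095, adjusted p = 0.00014 by limma), at 41.3% of the control mean. Lss, lanosterol synthase, was at 2.40, 2.69 and 2.39 FPKM in control and 1.16, 1.35 and 1.35 with R837. Each R837 library was under each control (log2 change -0.61, SE 0.098, adjusted p = 0.001 by limma), and the R837 mean was 51.5% of control. Ebp, a sterol isomerase, was at 15.1, 14.3 and 14.8 FPKM in control and 10.7, 9.43 and 10.9 with R837 (log2 change -0.48, SE 0.079, adjusted p = 0.0012 by limma). Sc5d, a sterol desaturase, was at 5.64, 6.34 and 6.19 FPKM in control and 4.43, 2.80 and 4.05 with R837 (log2 change -0.58, SE 0.14, adjusted p = 0.0096 by limma). Both were lower in every R837 library than in every control. Sqle, Cyp51, Msmo1, Nsdhl and Hsd17b7 were not called. Sqle, squalene epoxidase, was at 5.44 ± 0.510 FPKM in control and 5.38 ± 0.458 with R837 (log2 change 95% interval -0.29 to 0.26). The other 4 had log2 changes of -0.20 for Cyp51, the lanosterol demethylase, -0.33 for Msmo1 and -0.24 for Nsdhl, which remove methyl groups from sterols, and -0.06 for the ketosteroid reductase Hsd17b7. Tm7sf2, a sterol reductase, was at 0.429 ± 0.113 FPKM in control and 0.436 ± 0.149 with R837, below the filter. It shares 532 exon bases, 12.1% of its exons, with Vps51 on the same strand. Vps51 was at 8.43 FPKM in control and 7.63 with R837, and the part of its reads in the Tm7sf2 value was not tested.

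In the steps from acetyl-CoA units to squalene, 2 of 7 genes were called lower and 1 higher. Those shares were near the 29.5% lower and 13.6% higher of all tested genes. Fdft1, squalene synthase, which commits the pathway to sterols, was at 14.3, 13.7 and 13.0 FPKM in control and 8.51, 6.51 and 8.03 with R837. All controls were above all R837 libraries, and Fdft1 was called lower (log2 change -0.76, SE 0.1, adjusted p = 0.00039 by limma). Fdft1 shares 774 exon bases, 18.3% of its exons, with Ctsb on the opposite strand. Ctsb, cathepsin B, was at 2019 FPKM in control and 1604 with R837, and fell by 0.33 on the log2 scale (limma, adjusted p = 0.0024), and strandedness is not given in the sources used here, so reads of both genes cannot be told apart there. Pmvk, phosphomevalonate kinase, was at 6.43, 7.38 and 7.37 FPKM in control and 3.69, 4.78 and 4.08 with R837. Its groups did not overlap either (log2 change -0.64, SE 0.1, adjusted p = 0.00086 by limma). Idi1, which isomerises isopentenyl diphosphate, went the other way, from 2.18, 1.84 and 1.45 FPKM in control to 3.56, 2.33 and 3.46 with R837. R837 replicate 2 lay just above the highest control, and Idi1 was called higher (log2 change 0.54, SE 0.14, adjusted p = 0.014 by limma), but the adjusted p rose to 0.052 without control replicate 3 and to 0.0502 without R837 replicate 1. The processed pseudogene Gm13502 is identical to Idi1 over 684 bases and went from 0.287 ± 0.16 to 0.905 ± 0.23 FPKM, so reads could have been divided between them.

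Hmgcs1, Mvk, Mvd and Fdps, the other enzymes before squalene, were not called with all libraries. Hmgcs1, HMG-CoA synthase, was at 7.91, 7.89 and 7.81 FPKM in control and 6.02, 7.34 and 6.59 with R837 (log2 change -0.22, SE 0.092, adjusted p = 0.085 by limma). Every R837 library was below every control library. Mvk, mevalonate kinase, had a log2 change of -0.22 and Mvd, the mevalonate decarboxylase, of -0.04, with overlapping groups. Fdps, farnesyl diphosphate synthase, was at 2.43 ± 0.0411 FPKM in control and 1.92 ± 0.270 with R837 (limma adjusted p = 0.061), and its value is uncertain because pseudogenes match it at up to 98.9% identity. The summed level of the 7 genes was 52.1 ± 0.426 FPKM in control and 41.9 ± 2.48 with R837. That sum includes Fdft1, at 13.7 ± 0.660 FPKM in control and 7.68 ± 1.04 with R837. In the exons that Fdft1 shares with Ctsb, reads of both genes cannot be told apart. The summed level of the 10 genes from squalene to cholesterol was 43.7 ± 2.32 FPKM in control and 31.8 ± 2.65 with R837.

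**Figure D2:**
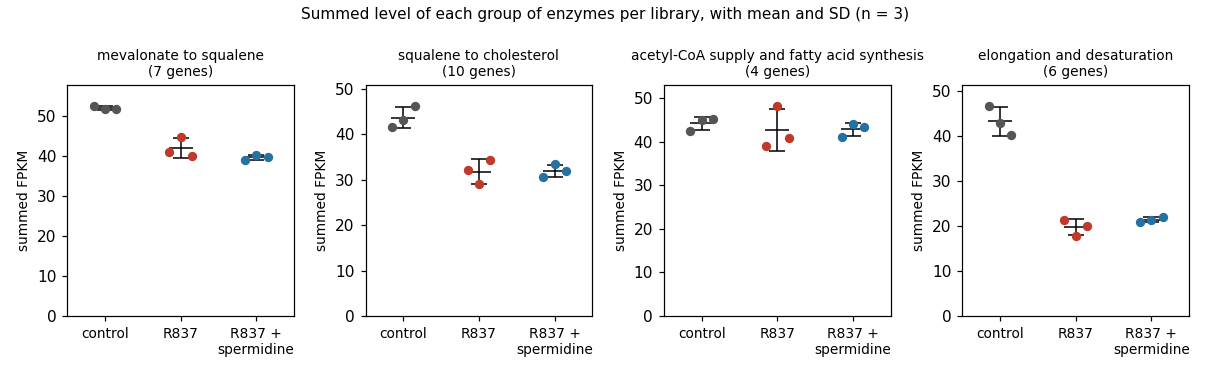
Summed FPKM of 4 groups of enzymes in each library (points), with the mean and SD of 3 libraries per group. Elongation and desaturation shows the widest gap, from 43.2 ± 3.19 in control to 19.7 ± 1.78 with R837 and 21.4 ± 0.557 with R837 and spermidine, whereas acetyl-CoA supply and fatty acid synthesis, which is mostly Acly, overlaps between groups.

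Among the regulators, Srebf2, the SREBP gene best known for sterol synthesis, rose. It was at 19.5, 20.6 and 19.8 FPKM in control and 24.7, 31.0 and 25.3 with R837. All R837 libraries were above all controls, R837 replicate 2 the most, and Srebf2 was called higher (log2 change 0.41, SE 0.092, adjusted p = 0.0067 by limma), at 135% of control. Srebf1, the SREBP gene best known for fatty acid synthesis, was at 11.9, 11.4 and 10.3 FPKM in control and 9.49, 12.9 and 10.0 with R837. Its groups overlapped, and it was not called (log2 change -0.06, 95% interval -0.31 to 0.20). Scap was at 8.06, 8.76 and 8.18 FPKM in control and 8.42, 10.7 and 9.29 with R837 and was not called (limma adjusted p = 0.19). Insig1, itself a known SREBP target, was at 25.3, 25.6 and 24.5 FPKM in control and 23.2, 22.0 and 22.9 with R837. Its groups did not overlap, yet the change was not called (log2 change -0.14, SE 0.065, adjusted p = 0.12 by limma). Insig2 (-0.11) and the sterol carrier Stard4 (-0.20, both log2 changes) were not called.

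The share of higher against lower calls over all tested genes depended on the scaling. It was 31.6% higher on FPKM as deposited, 43.6% after quantile normalization and 52.4% after median-of-ratios scaling, which moved the median change of all genes from -0.17 to -0.02. Under the latter, 11 of the 30 pathway genes were called lower and 4 higher. Of the 14 calls, Acaca lost its call under these scalings, with log2 changes of -0.14 by median-of-ratios scaling and -0.10 by quantile normalization, and the other 13 were called in the same direction under each; Scap (0.32) and Acly (0.28) passed as higher with median-of-ratios scaling.

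**Figure D3:**
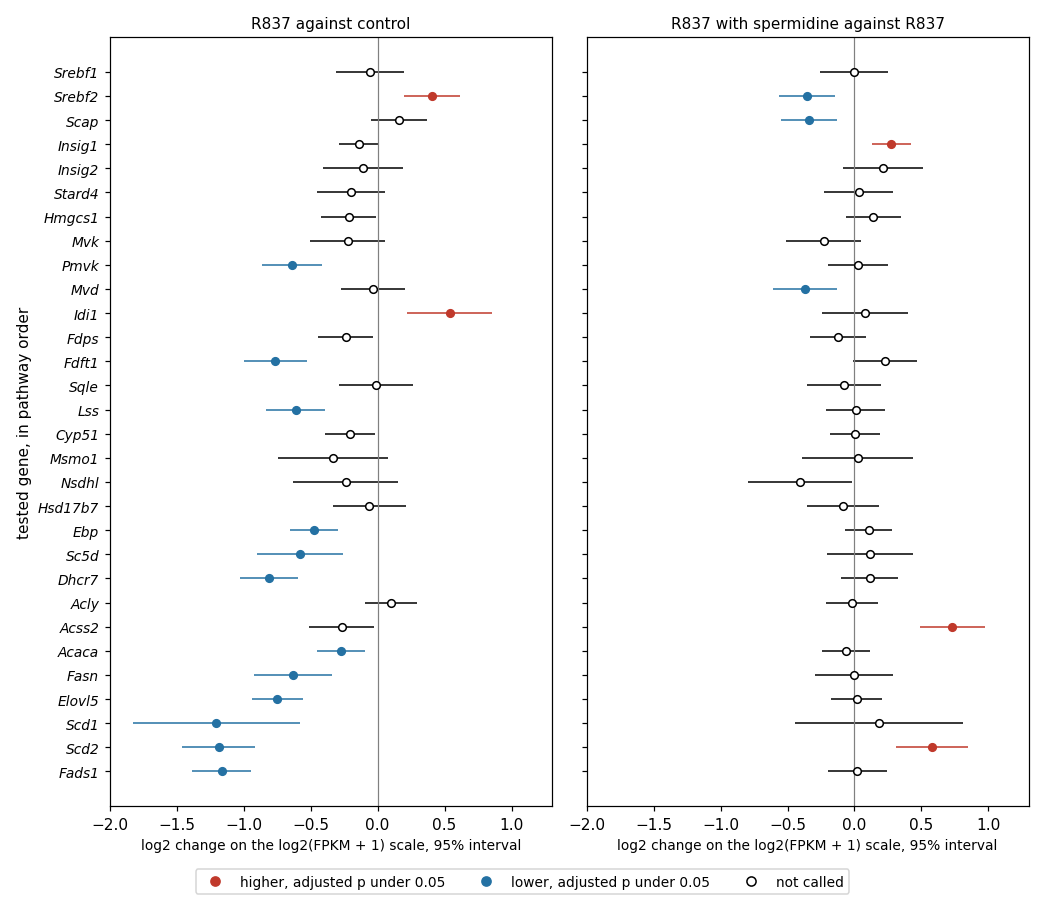
Log2 change on the log2(FPKM + 1) scale with its 95% interval for the 30 tested genes in pathway order, for R837 against control (left) and R837 with spermidine against R837 (right); filled points are calls by limma. On the left 12 genes are called lower and 2 higher, and on the right 3 are called in each direction.

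Promoter sequence is shown for Hmgcs1, the only gene searched with the sterol regulatory element core. It is also shown for Srebf2 and Idi1, called higher with R837, and for Lss and Elovl5, called lower. Acss2 is shown as well, which stood higher with spermidine but was tested only because the spermidine libraries reached the filter. Of the 33 genes, 26 have 34 promoters in the RefSeq table (GRCm38.p6), each from 250 bases before to 50 bases after a start. Stard4, Fdps, Fdft1, Sqle, Scd1, Scd2 and Fads1 have none there and were not searched. Both strands were searched for the sterol regulatory element core TCACNCCAC, the CCAAT box CCAAT and the palindromic E-box CACGTG. Capitals mark the first and second of these, which do not overlap in the sequences printed, and a CCAAT box on the other strand reads ATTGG.
Hmgcs1 (chr13:119690101-119690400, + strand): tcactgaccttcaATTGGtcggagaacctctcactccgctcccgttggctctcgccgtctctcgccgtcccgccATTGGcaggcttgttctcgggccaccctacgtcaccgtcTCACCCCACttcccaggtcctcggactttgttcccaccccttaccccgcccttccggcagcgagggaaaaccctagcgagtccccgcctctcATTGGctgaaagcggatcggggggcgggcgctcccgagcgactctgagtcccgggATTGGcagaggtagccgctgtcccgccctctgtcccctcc
Srebf2 (chr15:82147019-82147318, + strand): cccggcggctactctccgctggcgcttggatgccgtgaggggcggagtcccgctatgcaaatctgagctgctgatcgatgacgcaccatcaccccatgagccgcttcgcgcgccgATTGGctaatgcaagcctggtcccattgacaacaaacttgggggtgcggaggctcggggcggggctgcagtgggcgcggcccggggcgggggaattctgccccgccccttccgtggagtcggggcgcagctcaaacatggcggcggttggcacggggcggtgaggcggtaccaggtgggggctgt
Idi1 (chr13:8885356-8885655, + strand): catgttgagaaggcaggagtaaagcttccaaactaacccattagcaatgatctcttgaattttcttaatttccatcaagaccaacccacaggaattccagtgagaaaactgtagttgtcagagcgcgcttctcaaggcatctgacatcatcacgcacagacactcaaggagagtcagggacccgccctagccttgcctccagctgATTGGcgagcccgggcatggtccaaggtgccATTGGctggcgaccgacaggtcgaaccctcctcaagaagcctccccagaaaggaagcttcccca
Lss (chr10:76531355-76531654, + strand): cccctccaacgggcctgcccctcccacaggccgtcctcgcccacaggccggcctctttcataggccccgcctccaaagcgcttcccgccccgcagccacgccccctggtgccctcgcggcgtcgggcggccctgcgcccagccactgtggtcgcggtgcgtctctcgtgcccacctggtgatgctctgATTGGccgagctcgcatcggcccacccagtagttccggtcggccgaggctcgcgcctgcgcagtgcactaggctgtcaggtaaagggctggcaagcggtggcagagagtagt
Elovl5 (chr9:77917115-77917414, + strand): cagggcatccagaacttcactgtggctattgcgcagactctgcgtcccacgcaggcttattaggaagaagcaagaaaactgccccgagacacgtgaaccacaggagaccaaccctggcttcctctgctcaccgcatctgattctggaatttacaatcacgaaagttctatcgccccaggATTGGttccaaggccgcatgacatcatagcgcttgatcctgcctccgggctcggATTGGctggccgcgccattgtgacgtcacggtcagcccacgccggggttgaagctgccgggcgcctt
Acss2 (chr2:155517793-155518092, + strand): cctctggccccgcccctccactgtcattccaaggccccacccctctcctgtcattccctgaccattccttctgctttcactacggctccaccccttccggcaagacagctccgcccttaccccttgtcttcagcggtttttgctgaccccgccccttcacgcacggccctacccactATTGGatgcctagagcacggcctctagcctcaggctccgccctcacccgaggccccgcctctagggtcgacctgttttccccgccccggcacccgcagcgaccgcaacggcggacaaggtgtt
The sterol regulatory element core was found in Hmgcs1 alone of the 26 genes, at position -137 from the start, and in 1.24% of all 32851 promoters. Only this core was searched, with no mismatch allowed outside its N, so elements of other sequence were not counted. A CCAAT box was in 23 of the 34 promoters (67.6%), from 22 genes, against 37.4% of all promoters. The E-box was in 7 of the 34 (20.6%), against 7.15% of all. The searched promoter of Acaca, called lower with R837 against control, had no CCAAT box. Among the other searched genes, some of those called lower, called higher and not called had CCAAT boxes, such as Lss, Idi1 and Mvk. These are matches of letters in a window and were not tested against the changes.

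In neighbouring pathways, chosen as lists with earlier results of these data known, genes went both ways with R837. The counts stand against 29.5% lower and 13.6% higher of all tested genes; those of isoprenoid branches and of citrate export and NADPH supply were near these shares. Isoprenoid branches had 3 lower of 8 tested, led by Ggps1, geranylgeranyl diphosphate synthase (log2 change -0.60, adjusted p = 0.0048 by limma), Fnta, a farnesyltransferase subunit (-0.55), and Coq2 of ubiquinone synthesis (-0.45). Citrate export and NADPH supply had 2 lower of 6: Idh1, cytosolic isocitrate dehydrogenase, fell from 27.6 ± 0.732 to 10.9 ± 2.43 FPKM (log2 change -1.29, adjusted p = 0.00012 by limma), and G6pdx, which feeds the pentose phosphate route, had a log2 change of -0.30. Other elongation and desaturation genes had 5 lower and 1 higher of 10, and the dehydratase genes went both ways, with log2 changes of -0.88 for Hacd4, 0.76 for Hacd3 and -0.61 for Hacd1. Hacd1 reached the filter in the control libraries alone, so its lower call is a description. Mcat, the mitochondrial malonyl transferase, had a log2 change of -0.65. Acyl activation and glycerolipid assembly had 6 lower and 3 higher of 14. There, the acyl-CoA synthetase Acsl1 rose from 24.4 ± 5.57 to 91.9 ± 21.3 FPKM and Dgat2, the last enzyme of triglyceride synthesis, from 1.18 ± 0.0295 to 4.03 ± 0.814 FPKM, while the lipin gene Lpin1 (-1.45) and Lpcat3 (-0.55) fell. Oxysterol and sterol turnover had 9 lower and 2 higher of 16: Nceh1, a cholesteryl ester hydrolase, had a log2 change of -1.85, Abcg1, a cholesterol exporter, of -1.35 (adjusted p = 2.9e-06 by limma) and Osbpl9 of -1.33, and Ch25h, which makes an oxysterol that blocks SREBP processing, rose from 2.15, 2.84 and 2.74 to 9.83, 11.7 and 9.72 FPKM (log2 change 1.68, adjusted p = 3.9e-05 by limma). Cyp27a1, among the 9, reached the filter in the control libraries alone and is likewise a description. SREBP processing and degradation genes had 1 lower call of 9, Ubxn8 (-0.27).

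The addition of spermidine to R837 was compared with R837 alone. Scd2 rose, Insig1 rose slightly, and Srebf2, Scap and Mvd fell; Acss2 stood at 3.63 times its R837 mean. Of the 30 tested genes 3 were called higher and 3 lower, and 24 were not called; 1 of the higher calls is Acss2, which was tested only because the spermidine libraries reached the filter. Over all tested genes 13.6% were called, 5.60% higher and 8.00% lower, so that the share of pathway genes called was near that of all genes. The median log2 change was 0.02, against -0.02 for all tested genes. The groups did not overlap for 6 of the 30, 3 in each direction, and for 32.9% of all tested genes, 14.3% higher and 18.5% lower. Of the 5 calls other than Acss2, each was lost without at least 1 of the 9 libraries. With 1 library left out, the calls were 4 without R837 replicate 1 or 2 and 5 without R837 replicate 3. They were 1 without spermidine replicate 2, 2 without spermidine replicate 3 or control replicate 2, and 3 without spermidine replicate 1 or control replicate 1 or 3.

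Acss2 was at 0.362, 0.277 and 0.369 FPKM with R837 and 1.05, 1.41 and 1.21 with R837 and spermidine. All 3 spermidine libraries were above all R837 and all control libraries, and the log2 change was 0.73 (SE 0.11, adjusted p = 0.0033 by limma). Since the spermidine libraries alone brought it past the filter, this call is a description; in the fit with no filter, where no such condition applies, the change was also called (adjusted p = 0.0073). Acss2 (chr2:155517948-155585724) shares 395 exon bases, 3.89% of its exons, with Gss on the opposite strand. Gss, glutathione synthetase, rose over the same comparison from 3.34 ± 0.444 to 10.4 ± 0.994 FPKM (log2 change 1.40, limma adjusted p = 0.00012), and the part of its reads in the Acss2 value was not tested. Scd2 was at 0.788, 1.08 and 1.20 FPKM with R837 and 1.90, 2.25 and 1.90 with spermidine. Each spermidine library lay between the R837 and the control libraries, and Scd2 was called higher (log2 change 0.58, SE 0.12, adjusted p = 0.015 by limma), a call lost without spermidine replicate 2 (adjusted p = 0.064). Scd1, at 2.02, 1.61 and 2.11 and 2.60, 2.37 and 1.97 FPKM, overlapped between both groups and was not called (log2 change 0.19, 95% interval -0.44 to 0.81).

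Insig1 was at 23.2, 22.0 and 22.9 FPKM with R837 and 26.4, 27.9 and 28.9 with spermidine. The groups did not overlap, and the spermidine libraries were also above the controls; it was called higher (log2 change 0.28, SE 0.065, adjusted p = 0.026 by limma). Srebf2 was at 24.7, 31.0 and 25.3 FPKM with R837 and 20.3, 21.7 and 20.3 with spermidine, and the latter overlapped the controls. It was called lower (log2 change -0.35, SE 0.092, adjusted p = 0.036 by limma). Scap, at 8.42, 10.7 and 9.29 and 7.47, 7.42 and 6.85 FPKM, was called lower (log2 change -0.34, SE 0.092, adjusted p = 0.042 by limma). Scap shares 985 exon bases, 13.2% of its exons, with 5830462I19Rik on the opposite strand. The mean of 5830462I19Rik was 0.692 FPKM in control, 1.02 with R837 and 0.676 with R837 and spermidine. The part of its reads in the Scap value was not tested. Mvd was at 15.9, 19.2 and 14.1 FPKM with R837 and 13.3, 11.7 and 12.1 with spermidine and was called lower (log2 change -0.37, SE 0.11, adjusted p = 0.049 by limma). The Srebf2 call was lost without any 1 control or spermidine library (adjusted p up to 0.12), and the Insig1 call without control replicate 2, R837 replicate 1 or spermidine replicate 2 or 3 (up to 0.1). Scap kept its call with R837 replicate 1 left out and lost it without each other library (up to 0.14), and Mvd kept its call with R837 replicate 3 left out and lost it without each other library (up to 0.15). Both were lost with quantile normalization, and Mvd also with median-of-ratios scaling.

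Fads1, Elovl5, Fasn, Dhcr7 and Lss, which had fallen with R837, were not called when spermidine was added. Fads1 was at 4.46, 4.54 and 5.41 FPKM with spermidine (log2 change 0.02, 95% interval -0.20 to 0.24), Elovl5 at 11.7, 11.7 and 12.4 (0.02, -0.17 to 0.21) and Fasn at 4.84, 4.95 and 4.38 (-0.00227, -0.29 to 0.29). Dhcr7 was at 1.08, 1.39 and 1.45 FPKM (0.11, -0.10 to 0.33) and Lss at 1.12, 1.25 and 1.55 (0.01, -0.21 to 0.23). Spermidine and R837 libraries overlapped for each of the 5, and the intervals hold changes in either direction. Fdft1 was at 8.35, 9.94 and 9.16 FPKM (log2 change 0.23, limma adjusted p = 0.18), and Nsdhl at 1.04, 1.85 and 1.42 FPKM (-0.41, adjusted p = 0.16). Neither was called. Of the remaining tested genes, Srebf1, Insig2, Stard4, Hmgcs1, Mvk, Pmvk, Idi1, Fdps, Sqle, Cyp51, Msmo1, Hsd17b7, Ebp, Sc5d, Acly and Acaca were not called either, and their log2 changes ran from -0.23 for Mvk to 0.22 for Insig2. Below the filter, Fads2 was at 0.231, 0.412 and 0.282 FPKM with spermidine, overlapping R837, Tm7sf2 was at 0.290, 0.367 and 0.261, and Elovl6 stayed at or under 0.0611.

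**Figure D4:**
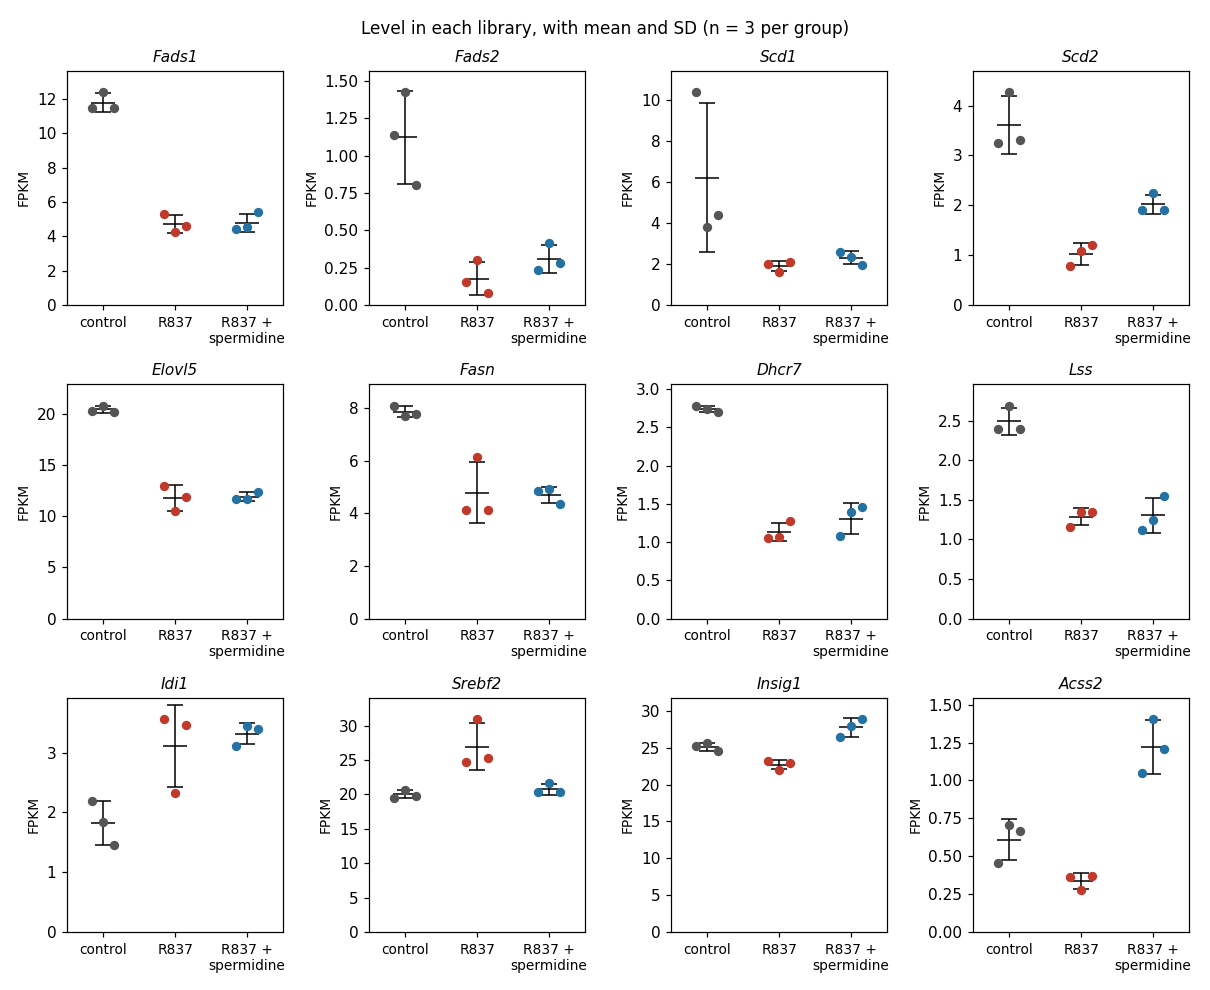
FPKM of 12 of the genes in each library (points), with the mean and SD of 3 libraries per group and axes from 0. Fads1, Elovl5, Dhcr7 and Lss are low in both stimulated groups, Srebf2 is high with R837 alone, Idi1 is high in both stimulated groups, and Acss2 is highest with R837 and spermidine.

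The neighbouring lists were chosen with earlier results of these data known, so their counts are descriptions. With spermidine, 4 of the 6 genes of citrate export and NADPH supply were called higher. Over all tested genes 5.60% were called higher and 8.00% lower. Me1, malic enzyme, was at 1.11, 1.07 and 1.00 FPKM with R837 and 5.13, 4.93 and 4.96 with spermidine (log2 change 1.54, SE 0.1, adjusted p = 6.9e-05 by limma). Idh1 was at 12.4, 8.07 and 12.2 and 30.1, 36.7 and 35.3 FPKM (log2 change 1.58, SE 0.15, adjusted p = 0.0004 by limma). Pgd, of the pentose phosphate route, had a log2 change of 0.61 and G6pdx of 0.30. For all 4 the groups did not overlap. Acly and the citrate carrier Slc25a1, the other 2 genes, were not called. Oxysterol and sterol turnover had 2 higher and 3 lower calls of 16: Lipa, the lysosomal lipase, was at 232 ± 33.3 FPKM with R837 and 413 ± 21.3 with spermidine (log2 change 0.84, adjusted p = 0.0015 by limma), and Soat2 (-0.66), Ch25h (-0.58) and the oxysterol receptor gene Nr1h3 (-0.54) fell. Dgat2 (-0.66) and Agpat1 (-0.44) were the 2 lower calls of 14 in glycerolipid assembly, Hacd4 (0.76) the 1 higher call of 10 in elongation and Coq2 (-0.42) the 1 lower call of 8 in isoprenoid branches. SREBP processing and degradation had 0 calls of 9 by limma, and 3 at an unadjusted p under 0.05, a share of 33.3% where 29.3% of all tested genes were under it.

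Cells given R837 and spermidine were also compared with the same control libraries, so this comparison is not independent of the first. Of the 30 tested genes 16 were called lower and 2 higher, Idi1 and Acss2, of which Acss2 was tested only through the spermidine libraries, where 46.8% of all tested genes were called, 32.7% lower and 14.1% higher. The groups did not overlap for 18 genes lower and 3 higher, and over all tested genes for 62.9%, with 43.4% lower and 19.6% higher. The median log2 change was -0.35, against -0.17 for all tested genes. Fads1 had a log2 change of -1.14 (limma adjusted p = 2.6e-05), Scd1 of -1.02, Elovl5 of -0.73, Dhcr7 of -0.70, Fasn of -0.63, Pmvk of -0.61, Scd2 of -0.61, Lss of -0.60 and Fdft1 of -0.53. The other 7 lower calls were Mvk, Mvd, Fdps, Nsdhl, Ebp, Sc5d and Acaca, with log2 changes from -0.64 to -0.33. Of these, Nsdhl kept its call under both scalings and the other 6 lost theirs under 1 or both; Mvk lost its call without control replicate 3 or spermidine replicate 3 (adjusted p = 0.053 in both), Nsdhl without control replicate 3 (0.052), and Sc5d without control replicate 2 or 3 or spermidine replicate 1 or 3 (up to 0.087). The share of higher calls over all tested genes was 30.1%, against 43.8% after quantile normalization and 52.5% after median-of-ratios scaling. Under the latter 10 pathway genes were called lower and 4 higher, the added higher ones being Insig1 (log2 change 0.33, limma adjusted p = 0.0038) and Acly (0.27, adjusted p = 0.029).

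Idi1 was at 3.11, 3.44 and 3.39 FPKM with R837 and spermidine and 2.18, 1.84 and 1.45 in control. The groups did not overlap, and Idi1 was called higher (log2 change 0.62, SE 0.14, adjusted p = 0.0066 by limma). Acss2, at 1.05, 1.41 and 1.21 against 0.452, 0.708 and 0.670 FPKM, had a log2 change of 0.46 (SE 0.11, adjusted p = 0.0069 by limma; 0.012 with no filter), again a description. Gss, its neighbour on the opposite strand, rose over the same comparison as well (log2 change 1.34, limma adjusted p = 1.3e-05). Srebf2 (0.05), Srebf1 (-0.06), Scap (-0.18), Insig1 (0.14), Insig2 (0.11) and Stard4 (-0.17, all log2 changes) were not called, so 0 of the 6 genes of regulation and transport passed by limma, and 0 at an unadjusted p under 0.05, where 54.1% of all tested genes were under it; Insig1 passed as higher with median-of-ratios scaling. The summed level of the cholesterol arm was 95.7 ± 1.97 FPKM in control, 73.7 ± 0.548 with R837 and 71.7 ± 2.04 with R837 and spermidine. It includes Fdft1, whose reads cannot be told apart from those of Ctsb in the exons they share. In the same order, the summed level of the fatty acid arm was 87.5 ± 1.82, 62.4 ± 3.08 and 64.2 ± 1.91 FPKM (SD, n = 3).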

How the data were processed

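Libraries were made by the submitters with an mRNA-seq kit, per the labels' protocols. HISAT2 and StringTie, with the builds mm8 and mm10, appear in the submitters' processing notes with no role or version given; whether counting used strand is not given in the sources used here. The values used are FPKM per gene, deposited by the authors with 1 file per library and described as such per the file headers. The 52550 identifiers were matched to GENCODE mouse release 21 (GRCm38), which gave a symbol to 52403 (99.7%); rows of the same symbol were summed. All 37 mitochondrial genes were listed at 0. Tests used limma 3.58.1 in R 4.3.3 on log2(FPKM + 1) with a mean-variance trend, with all 9 libraries in one fit and a filter of at least 1 FPKM in at least 3 libraries, and Benjamini-Hochberg adjustment over all tested genes within each comparison; the threshold was 0.05. All 3 comparisons are two-sided and share libraries. The procedure was tested on simulated data. Because the files hold no counts, no count test was run: 48.4 to 51.9% of low values lay within 0.1 of a whole multiple of the smallest step, too few to recover reads. Near-identical copies were found with BLAST 2.17.0, and promoters come from RefSeq. The 33 genes and the lists were chosen with earlier results of these data known. All 33 genes are named whatever their values, and of each neighbouring list up to 4 called genes with the largest changes. Alternatives changed the pseudocount, filter, scaling, spread estimate, block and libraries.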

Additional observations from a re-analysis of the deposited data

How the results depend on the processing

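Of 38 calls over 90 comparisons of tested genes, 24 were kept under every alternative that tested the gene. Leaving out any 1 library kept 12 of 14 calls of R837 against control, 15 of 18 of R837 with spermidine against control, and 1 of 6 of R837 with spermidine against R837, Acss2, which was tested only through the spermidine libraries. A filter on a mean of at least 5 FPKM, which tests 6322 genes, lowered the calls over all genes to 2925 from 5081 (R837 against control) and to 3152 from 5508 (spermidine with R837 against control), and the pathway genes called to 7 from 14 and to 7 from 18, the other called genes being under this filter. For R837 with spermidine against R837, a fit of only these groups called 757 genes, 2 of them pathway genes, in place of 1601 and 6, and no filter called 3 pathway genes; the causes were not tested. Leaving out single libraries gave 749 (without spermidine replicate 3) to 1672 genes and 1 to 5 pathway genes there. Uncalled changes of R837 with spermidine against R837 turned sign: Fasn was at 0.0007 with a pseudocount of 0.1, 0.0113 with median-of-ratios scaling and 0.0155 with quantile normalization. With single libraries left out, the log2 changes ran from -0.0824 to 0.1567 for Fasn, from -0.0649 to 0.0669 for Lss, from -0.0589 to 0.0831 for Elovl5 and from -0.0537 to 0.091 for Fads1. The replicate numbers of the titles were checked as a possible pairing of the samples. Correlations of deviations between libraries of the same number ran from -0.0912 to 0.159, and not every library correlated best with its own number. Such correlations cannot tell whether libraries of the same number share a mouse or culture, which the labels do not give. With the replicate block, pathway genes called were 15, 3 and 19 for R837, for spermidine added to R837 and for both agents, each as compared above, and genes called over all were 4813, 1131 and 5245. Differences in low genes such as Fads2, Tm7sf2 and Elovl6 are limited by depth.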
